A study of Mus musculus with 4 samples.

Results

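Gap junctions are clusters of channels through which neighbouring cells exchange ions and small molecules, and each channel is built from connexin proteins. Epithelia usually use several connexins at once, and the encoding genes lie partly in clusters, so that neighbours share the DNA around them. The 6 connexin genes described here are Gjb2, Gjb5, Gjb6, Gja1, Gja3 and Gja4. Gjb2 and Gjb6 encode connexins of the epidermis and of the supporting cells of the cochlea, Gjb5 encodes a connexin of stratified epithelia, and Gja1 encodes the most widely used connexin of vertebrate tissues. Gja3 is best known from the lens and Gja4 from vascular endothelium.

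Chromatin accessibility near these genes was read from ATAC-seq of the surface ectoderm of E11.5 mouse facial prominences. ATAC-seq marks open DNA by the insertions of a transposase. Of 4 libraries, 2 came from control embryos (Tfap2a flox/+; Tfap2b flox/+, without Crect) and 2 from EDKO embryos (Crect; Tfap2a flox/flox; Tfap2b flox/flox), whose ectoderm lacks the transcription factors AP-2α and AP-2β. Crect is a Cre transgene driven by an intronic enhancer of Tfap2a itself, and the controls carry 1 floxed copy of each gene but no Cre. The prominences of an embryo were used together, so areas of the face cannot be told apart. A control peak is an accessible stretch called by the authors from both control libraries together. An AP-2-dependent region is a stretch called as enriched in both control libraries together, with both EDKO libraries as the background. Because each call combined its libraries, a peak has 1 value and no error between replicates, the number of reads behind it is not in the lists, and no test between groups was possible. Every value below is therefore a description.

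Peaks and regions were taken as near a gene when their centre lay within 100 kb of its start site. Of 65467 control peaks, 43 met this rule, and so did 3 of 3103 AP-2-dependent regions. The 43 peaks formed 3 separate loci. On chromosome 14 there were 15 peaks near Gja3, Gjb2 or Gjb6, of which 12 were near all 3 genes. On chromosome 4 there were 15 near Gja4 or Gjb5, of which 9 were near both, and Gja1 stood alone on chromosome 10 with 13. Since the windows overlap, neighbouring genes are not independent of each other. The start site closest to the peak belonged to 1 of the 6 genes for 32 peaks, and to another gene for 11.

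The chromatin was open over the start sites of all 6 genes in control ectoderm. A control peak covered the start site in 6 of 6, whereas 61.6% of all 21853 protein-coding genes had one (13456 genes). None of these start-site peaks overlapped an AP-2-dependent region. AP-2-dependent regions lay away from the start sites, and near 4 of the 6 genes: 2 in the cluster of Gja3, Gjb2 and Gjb6 and 1 upstream of Gjb5. Gja1 and Gja4 had none within 100 kb. The count of 4 genes depends on the limits: it was 3 within 50 kb, where Gjb5 lost its region. Within 250 kb it was 5, since Gja4 then counted the region upstream of Gjb5 as well. It was 1 (Gjb5) when only peaks and regions with an area of at least 500 under the curve of −log10 p were kept. Of all protein-coding genes, 20.2% had a region within 100 kb (4415 genes), and 3 of the 4 connexin genes that did counted the same 2 regions.

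The 3 AP-2-dependent regions are shown in full or, where they exceed 300 bases, as the 300 bases around their summit, because they are the only AP-2-dependent calls near these genes. They are on the plus strand of GRCm38 (mm10), 5′ to 3′. Capitals mark matches to the AP-2 string GCCNNNGGC and to a consensus of the p53 family, of which p63 is the epithelial member. Both were searched on either strand, in addition to GGAATG for TEAD factors and AACNGGTT for grainyhead-like (GRHL) factors. A match is a description of the letters and not a site of binding.
Region upstream of Gja3, chr14:57072205-57072498: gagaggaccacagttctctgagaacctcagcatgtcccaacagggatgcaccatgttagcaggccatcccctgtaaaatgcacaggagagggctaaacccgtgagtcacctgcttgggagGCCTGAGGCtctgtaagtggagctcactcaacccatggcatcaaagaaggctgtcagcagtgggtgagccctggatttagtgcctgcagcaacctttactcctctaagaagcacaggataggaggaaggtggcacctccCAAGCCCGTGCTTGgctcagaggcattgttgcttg
Region in an intron of Gjb6, chr14:57130454-57130753: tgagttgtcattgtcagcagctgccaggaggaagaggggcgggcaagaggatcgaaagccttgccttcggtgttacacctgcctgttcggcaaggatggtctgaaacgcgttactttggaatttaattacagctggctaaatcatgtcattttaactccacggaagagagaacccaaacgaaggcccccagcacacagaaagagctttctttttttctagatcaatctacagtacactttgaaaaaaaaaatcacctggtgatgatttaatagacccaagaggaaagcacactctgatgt
Region upstream of Gjb5, chr4:127429842-127430141: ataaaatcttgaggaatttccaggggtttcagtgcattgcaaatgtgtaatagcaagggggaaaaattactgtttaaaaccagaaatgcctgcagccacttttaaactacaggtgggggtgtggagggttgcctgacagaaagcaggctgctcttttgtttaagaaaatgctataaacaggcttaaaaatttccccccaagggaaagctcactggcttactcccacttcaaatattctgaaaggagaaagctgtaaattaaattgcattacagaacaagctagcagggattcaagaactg

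The region upstream of Gja3 lay between genes, 14.3 kb upstream of Gja3, 32.4 kb downstream of Gjb2 and 61.3 kb downstream of Gjb6. It spanned 294 bp, with a deposited −log10 p of 3.79 at its summit and an area under the curve of 283. The area under the curve is the sum of −log10 p above the calling threshold over the bases of a peak. Of all AP-2-dependent regions, 20.5% had a lower summit value, so it was among the weaker ones. It filled 92.5% of a control peak of 318 bp (chr14:57072202-57072519) whose summit −log10 p of 5.12 exceeded that of 50.4% of control peaks. Its AP-2 match, GCCTGAGGC at bases 121 to 129, had its middle 13 bp from the summit of the control peak but 149 bp from the summit of the region. The p53 family match, at bases 260 to 273, had its middle 7 bp from the region's summit.

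The second region (chr14:57130320-57130787) lay in intron 2 of 2 of Gjb6, 3.06 kb downstream of the start site. It was 25.9 kb upstream of Gjb2 and 72.5 kb upstream of Gja3. Its width was 468 bp, its summit −log10 p 4.22 and its area 396, and 42.4% of regions had a lower summit value. The control peak that holds it (chr14:57130315-57130871) measured 557 bp, had a summit −log10 p of 5.46, and was filled to 84.0%. None of the 4 strings was found in the whole region. The looser AP-2 string GCCNNNGG matched 1 time, as GCCTTCGG.

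The region upstream of Gjb5 (chr4:127429712-127430167) lay between genes at 71.8 kb from the Gjb5 start site, the closest start site of a protein-coding gene. Gja4 was too far away to count it. It was the strongest of the 3, with a summit −log10 p of 4.99, above 67.2% of regions, an area of 724 and a width of 456 bp. It filled 98.5% of its control peak (463 bp, summit −log10 p 4.99), and both summits fell on the same base. None of the strings was found in it. Across the list of regions the medians were 4.40 for the summit −log10 p, 360 bp for the width and 395 for the area.

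**Figure D1:**
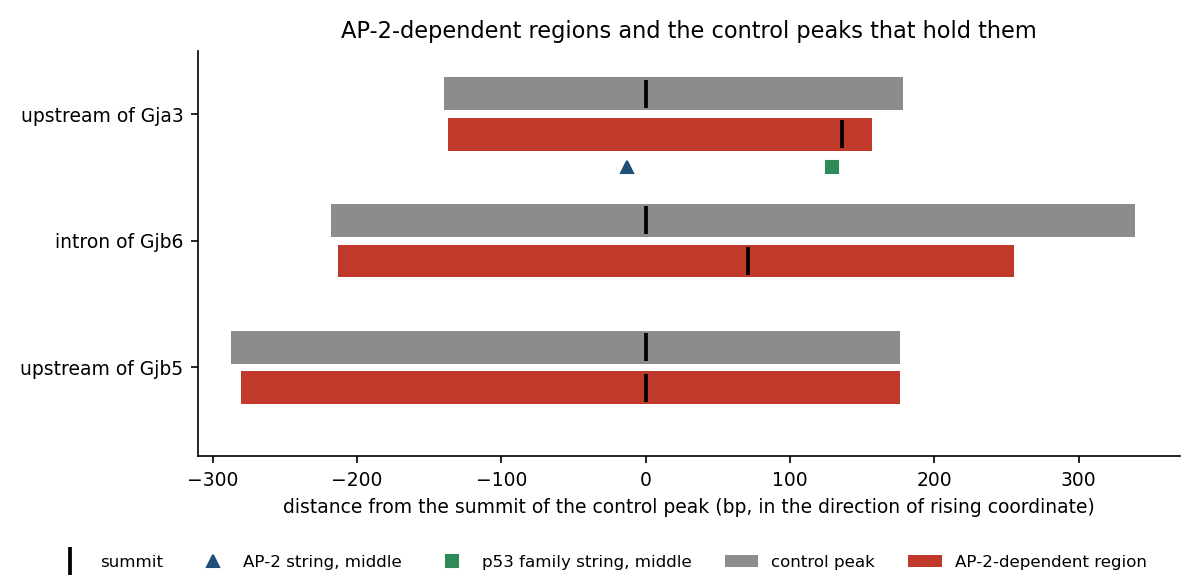
The 3 AP-2-dependent regions (lower bars) and the control peaks that hold them (upper bars), by distance in bp from the summit of the control peak. Black ticks are summits, the triangle is the middle of the AP-2 string and the square that of the p53 family string. The regions fill 84.0% to 98.5% of their control peaks, and the summits coincide only upstream of Gjb5.

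Read over peaks instead of genes, 3 of the 43 control peaks overlapped a region. This was 6.98% (95% Wilson interval 2.40% to 18.6%, counting error only), beside 4.48% of all control peaks (2932 peaks) and 3.65% of the 52424 control peaks within 100 kb of any protein-coding start site. Both of these shares lie inside the interval, so the share near the connexin genes was not distinguishable from the background. By locus the overlap was 2 of 15 peaks for Gja3, Gjb2 and Gjb6 (13.3%, interval 3.74% to 37.9%), 1 of 15 for Gja4 and Gjb5, and 0 of 13 for Gja1, with a Wilson interval that reaches 22.8%. The 9 connexin-locus peaks that cover a start site, those of other genes included, held 0 overlaps. Among all 12350 start-site peaks, 1.07% overlapped a region (132 peaks). The 26 peaks more than 5 kb from any start site held 2 of the 3 overlaps, the peaks upstream of Gja3 and of Gjb5.

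**Figure D2:**
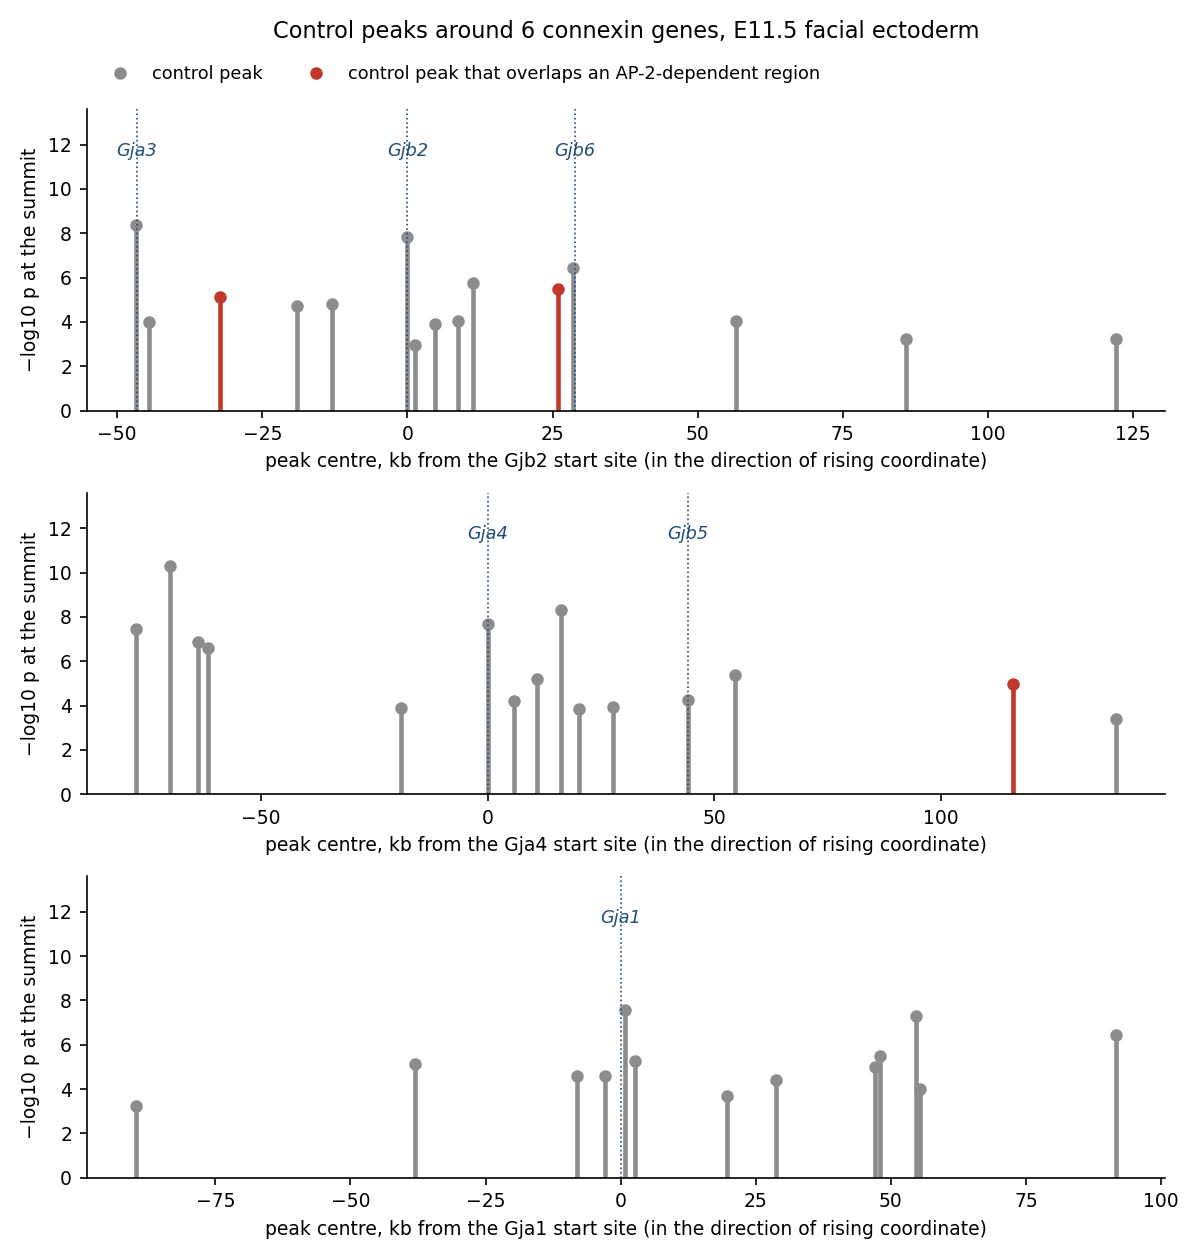
Control peaks at the 3 connexin loci, with the distance of the peak centre in kb from the Gjb2, Gja4 or Gja1 start site on the horizontal axis and the authors' −log10 p at the summit on the vertical axis. Dotted lines are start sites of the 6 genes and red marks the 3 peaks that overlap an AP-2-dependent region. The red peaks are of middling height, from 4.99 to 5.46, and none lies on a dotted line.

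The start-site peaks differed widely in width and summit value among the 6 genes. Gja3, whose product forms channels between lens fibre cells, had the highest summit value of the 6. Its peak (chr14:57057277-57058495) spanned 1219 bp with a summit −log10 p of 8.36. Gjb2, the connexin gene mutated in the most common inherited form of deafness, had the widest (chr14:57103398-57105692), with 2295 bp, a summit value of 7.83 and an area of 4430. Gja4 followed with 777 bp and 7.66 (chr4:127313587-127314363).

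Gja1 had a peak almost as wide as that of Gjb2, at 2289 bp, with the largest area of the 6, 5701, and a summit value of 7.59 (chr10:56377061-56379349). Most of it lay over the gene, and its summit was in intron 1 of 1. Gjb6, whose product pairs with that of Gjb2 in mixed channels, had 1097 bp and 6.45 (chr14:57132762-57133858). Gjb5 had by far the smallest, 190 bp with a summit value of 4.23 and an area of 269.5 (chr4:127358111-127358300). The order of the 6 genes by summit value carries no error, so neighbours in it cannot be told apart.

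Measured against other start sites, these peaks were low. The median summit −log10 p of all 12350 start-site peaks was 9.55, and each of the 6 lay below it, from 3.15% of start-site peaks with a lower value at Gjb5 and 16.3% at Gjb6 up to 35.6% at Gja3. Width was spread more evenly. Beside a median of 1388 bp, 86.5% of start-site peaks were narrower than that of Gjb2 and 86.4% than that of Gja1, but only 0.0324% than that of Gjb5. The interval over the Gjb5 start site was thus among the narrowest that covered any protein-coding start site in these libraries. Beside the list of all control peaks, where the median was 5.10, the start-site peak of Gjb5 was also in the lower part, with 30.0% of peaks below it.

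**Figure D3:**
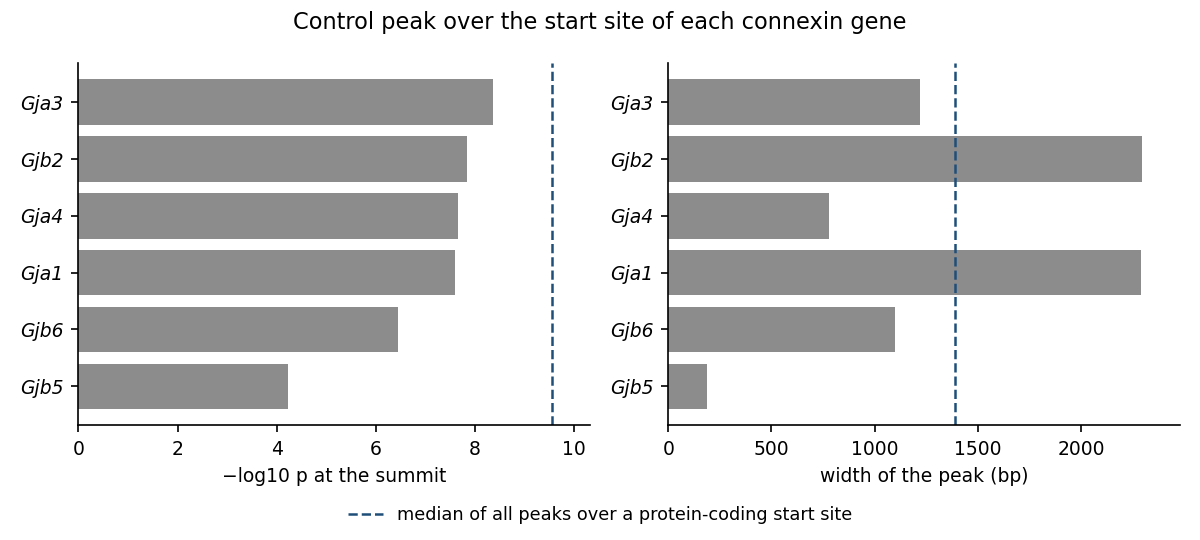
The control peak over the start site of each of the 6 connexin genes, ordered by the authors' −log10 p at the summit (left) and with the width in bp (right). Dashed lines are the medians of all 12350 start-site peaks, 9.55 and 1388 bp. All 6 bars on the left end short of the median, and on the right only Gjb2 and Gja1 pass it.

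Away from the start sites, the loci had different layouts. Around Gja1 the peaks were spread over the whole window, 4 centred upstream and 9 downstream of the start site, and Gja1 was the closest gene for 12 of 13. After the start-site peak the highest were at 54.6 kb downstream, with a summit −log10 p of 7.29, a width of 797 bp and an area of 1882, and at 91.7 kb downstream, with 6.42. The peak at 54.6 kb had nearly the summit value of the start-site peak itself. None of the 13 overlapped an AP-2-dependent region.

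In the chromosome 14 cluster, the start sites of Gja3 and Gjb2 lie 46.6 kb apart and those of Gjb2 and Gjb6 28.9 kb apart, all on the minus strand. The 3 highest peaks for each of these genes were the 3 start-site peaks. The 12 other peaks were lower, from 2.97 to 5.76, and included the 2 that overlap AP-2-dependent regions, at 5.12 and 5.46. Gjb6 had 15 peaks within 100 kb, Gjb2 14 and Gja3 12, with medians of 4.71, 4.75 and 4.95.

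In the chromosome 4 locus, the start sites of Gja4 and Gjb5 are 44.1 kb apart, both on the minus strand. The start-site peak of Gja4, with a summit −log10 p of 7.66, stood above the 4.23 of the Gjb5 start-site peak. A peak 10.4 kb upstream of the Gjb5 start site, with 5.37, was also higher than the one over it. Higher peaks of this locus are not described here. Gja4 had 13 peaks within 100 kb (median 5.37) and Gjb5 11 (median 4.23).

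Over all 3 loci, the 43 peaks had a median summit −log10 p of 4.98 (range 2.97 to 10.3) beside 5.10 for all control peaks. The median width was 435 bp (190 to 2510 bp) beside 560 bp, and the median area 584 beside 726. The deposited score (area over width, times 1000, never above 1000) was at its upper limit in 36 of 43 and separates few of them. By protein-coding transcripts alone, summits fell between genes in 35 peaks, in introns in 4, in untranslated exons in 3 and in a coding exon in 1. The 35 include the start-site peaks of Gjb2, Gjb5 and Gja4, whose summits lay just upstream of the start site. They also include some summits inside genes of the full annotation, Gja1 among them. In all, the peaks covered 27.7 kb.

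The letters around the summits, in windows of 201 bp, did not differ from those of the list beyond counting error for the AP-2 string. The AP-2 string GCCNNNGGC was present in 8 of 43 windows (18.6%, interval 9.74% to 32.6%), beside 14.4% of all control peaks and 22.7% of all AP-2-dependent regions. In whole peaks the order turned, with 23.3% beside 32.4% of all control peaks. In the windows at most 5 kb from a start site it was 5 of 17 (29.4%) beside 19.3%, and farther away 3 of 26 (11.5%) beside 12.3%. The TEAD string GGAATG was present in 11 of 43 (25.6%, interval 14.9% to 40.2%) beside 17.9%. Of these 11, 5 were among the 17 windows within 5 kb of a start site, where 10.7% of all control peaks held it. That share, 29.4%, has an interval of 13.3% to 53.1%, but it was singled out after the values of 4 strings were seen. The GRHL string was found in 1 window beside 3.09%, and the p53 family string in 1 beside 8.68%. No string was found in 25 of the 43. In whole AP-2-dependent regions, the AP-2 string was present in 1 of these 3 beside 29.7% of all 3072 searched.

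The promoters of Gjb2, Gjb5 and Gjb6 are shown because they hold strings inside the start-site peaks described above. Given are the 250 bases upstream of the RefSeq start site on GRCm38.p6, minus strand, 5′ to 3′, with the base next to the start site last. Capitals mark GCCNNNGGC in Gjb2 and Gjb5, and AACNGGTT followed by the p53 family string in Gjb6.
Gjb2, chr14:57104703-57104952: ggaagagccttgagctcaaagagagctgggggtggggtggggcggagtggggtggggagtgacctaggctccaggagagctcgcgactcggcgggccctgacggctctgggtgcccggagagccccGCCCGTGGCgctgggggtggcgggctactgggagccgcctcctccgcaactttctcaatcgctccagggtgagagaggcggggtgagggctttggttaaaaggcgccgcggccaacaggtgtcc
Gjb5, chr4:127358165-127358414: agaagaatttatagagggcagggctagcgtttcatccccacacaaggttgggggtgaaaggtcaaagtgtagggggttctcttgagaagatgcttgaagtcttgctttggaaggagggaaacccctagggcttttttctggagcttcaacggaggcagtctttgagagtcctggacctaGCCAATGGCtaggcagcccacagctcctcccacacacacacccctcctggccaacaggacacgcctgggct
Gjb6, chr14:57133612-57133861: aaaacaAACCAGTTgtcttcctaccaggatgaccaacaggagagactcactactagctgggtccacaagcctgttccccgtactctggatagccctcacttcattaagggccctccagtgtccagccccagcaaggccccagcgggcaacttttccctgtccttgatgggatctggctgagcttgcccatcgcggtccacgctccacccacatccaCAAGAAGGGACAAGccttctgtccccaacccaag

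The Gjb2 match, GCCCGTGGC, lay at 124 to 116 bases upstream of the start site. The Gjb5 match, GCCAATGGC, lay at 71 to 63 bases upstream and contains CCAAT, so the same letters also match the CCAAT box. The RefSeq start of Gjb5 was 17 bp downstream of the start site used for the distances. In Gjb6 the GRHL match AACCAGTT lay at 244 to 237 bases upstream and the p53 family match at 34 to 21 bases. These strings occur in 16.7% (AP-2), 2.09% (GRHL) and 7.11% (p53 family) of the 32544 RefSeq promoters of 300 bases. None of the 4 strings was found in the promoters of Gja1, Gja3 and Gja4, and the looser GCCNNNGG, present in 55.1% of promoters, matched in Gja3 and Gja4.

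These promoters also differed in CpG content. The ratio of observed to expected CpG was 0.760 for Gjb2, with 27 CpG in 300 bases, and 0.966 and 0.929 for the 2 promoters of Gja3, against a median of 0.387 over all promoters. Gja1 (0.544) and Gja4 (0.557) were between these, and Gjb6 (0.255) and Gjb5 (0.136, with 3 CpG) were below the median. Gjb5 and Gjb6, the 2 genes with the lowest ratios, were also those with the lowest start-site summit values.

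Elsewhere in the connexin family most start sites examined had no control peak. Of 12 other connexin genes, 3 had a control peak over the start site (Gjc1, Gjd2 and Gjd3) and 9 had none. The 6 genes had 11 to 15 control peaks within 100 kb and the 12 others 0 (Gjc3) to 27 (Gjd3), beside a median of 8 for all protein-coding genes (quartiles 4 and 13). Of the 89 control peaks near these 12 genes, 2 overlapped a region (2.25%, interval 0.618% to 7.83%). This interval overlaps that of the 6 genes, which does not show the shares to be alike, and their difference was not tested.

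Of the 12, Gja5 and Gjd4 had an AP-2-dependent region within 100 kb. Such a region lay near 20.2% of all protein-coding genes, so the small counts here and below set no group apart. The Gja5 region, near a gene known for cardiac atria and arteries, was 55.8 kb downstream of the start site, with a summit −log10 p of 3.57. That of Gjd4 was 65.7 kb downstream, with 4.30. Its summit lay in an untranslated exon of Fzd8, a Wnt receptor gene, with the region 4.90 kb from the Fzd8 start site. The pannexins, which form channels of another family, had 0 of 3 genes with a region. Of 4 genes for proteins that bind connexins (Tjp1, Tjp3, Cav1 and Ccn3), 4 had a start-site peak and 1, Cav1, had a region, 34.5 kb downstream with a summit −log10 p of 3.78.

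**Figure D4:**
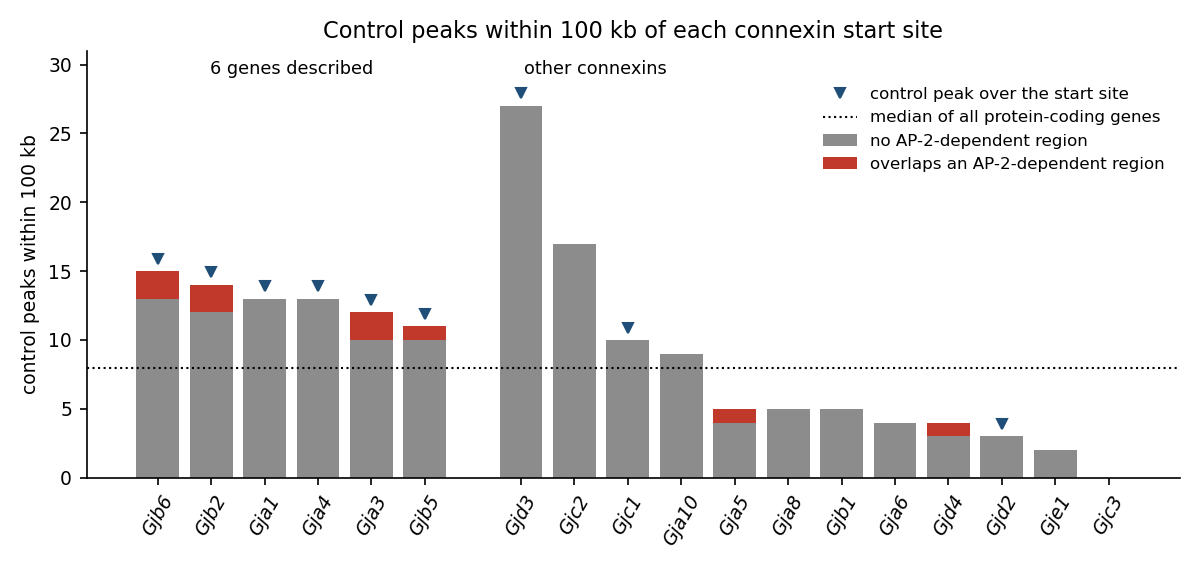
The number of control peaks within 100 kb of each of 18 connexin start sites, the 6 described genes on the left. Red parts are peaks that overlap an AP-2-dependent region, triangles mark genes with a control peak over the start site, and the dotted line is the median of all protein-coding genes, 8. All 6 genes are above the line and carry a triangle, against 3 triangles among the 12 others, and neighbouring genes count the same peaks.

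Just outside the limit, a region of 600 bp (chr14:57247280-57247879, summit −log10 p 4.07) lay 114.0 kb upstream of Gjb6, and 142.9 kb and 189.5 kb upstream of Gjb2 and Gja3. A further one (chr14:57376923-57377177, 3.93) lay 243.4 kb upstream of Gjb6, inside an intron of Cryl1. Gja1 had no AP-2-dependent region within 250 kb.

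Start-site peaks of marker genes were also counted, in lists drawn up after the peaks had been seen. These counts cannot decide which tissue was sampled, since 61.6% of all protein-coding genes had such a peak. All 8 of 8 ectoderm markers had one (Cdh1, Epcam, Trp63, Krt5, Krt8, Krt18, Grhl2 and Esrp1). So did 5 of 6 mesenchyme markers, 1 of 6 endothelium markers (Kdr) and 2 of 6 lens markers (Foxe3 and Bfsp1). An open start site does not tell which cells held it, so the part of mesenchyme, lens or vessel cells in the peaks of Gja3, Gja4 and Gja1 was not tested. Peaks alone do not show that any of these genes was expressed, and the name epithelial connexins was not checked by expression here.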

How the data were processed

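ATAC-seq libraries of E11.5 facial surface ectoderm (2 control, 2 EDKO) were processed by the authors with NGmerge, Bowtie2 (--very-sensitive -k 10, so that a read could be placed at up to 10 positions) on mm10, SAMtools and Genrich v0.5. Genrich ran in ATAC-seq mode, without PCR duplicates and mitochondrial reads. Control peaks come from both control libraries against a genome-wide background, AP-2-dependent regions from the control libraries with EDKO as background. The authors deposited for each peak a score, an area under the curve (a score as well), the −log10 p at the summit (unadjusted for the number of positions) and the summit offset. Since the backgrounds differ, these values were ranked within their own list only. No read counts or values per library were used, so the reads behind each peak are not known.

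Distances run from the centre of a peak to the GENCODE (mouse release 21) start site of the principal transcript, for 21853 protein-coding genes. Overlap was counted from 1 bp. Strings were searched on both strands within 100 bp of the summit and in RefSeq promoters (250 bases before to 50 after the start), and peaks on scaffolds were not searched. The software was Python 3.11.15, pandas 2.3.3 and pysam 0.24.0, and the functions were tested on simulated data. The genes and lists were chosen with earlier results of these data known. Named in the text are the 6 genes, for each the peak over its start site, its 3 highest control peaks and every region within 100 kb and those other connexins, pannexins and partners that have a region, and some of these results are not reported here. Other names (the connexins with a start-site peak or the fewest and most peaks, Fzd8, Cryl1 and the markers) were chosen after their values were seen. The marker lists were added later.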

Additional observations from a re-analysis of the deposited data

How the results depend on the processing

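No library could be left out and no test was run, because each list is 1 call on combined libraries. No paired analysis was possible because the replicates of a group have no values of their own. For 17 results, 80 alternative values were computed, of which 54 stayed within the range set for them and 26 moved, 20 of the latter being counts for single genes. With a limit of 250 kb there were 67 control peaks and 5 AP-2-dependent regions, and with the minimum area under the curve raised to 500 there were 24 peaks and 1 region, the one upstream of Gjb5. The share of peaks that overlap a region stayed between 4.17% and 7.46% at limits of 50 and 250 kb, with summits in place of centres and with the minimum area. The upstream-most start site was the one already used for each of the 6 genes. Its values could therefore not move, although they count among the 54. An overlap of 50% of both intervals could not lower the share either, since the regions fill 84.0% to 98.5% of their control peaks. Of all control peaks within the limit of a start site, 3.20% overlapped a region at 50 kb and 4.12% at 250 kb, beside 3.65% at 100 kb. Of all control peaks, 2.87% did with the 50% overlap and, among those of the minimum area, 2.46%, beside 4.48%. The AP-2 string was in 39.5% of windows as GCCNNNGG, beside 49.3% of all control peaks, in 6.98% within 50 bp of the summit beside 7.42%, and in 23.3% of whole peaks beside 32.4%. In these 3 settings the connexin share was below that of the list, and in the 201-bp windows above it. The cause of these shifts was not tested beyond the settings themselves. The reads behind each peak are not known, so a stretch where no peak was called cannot be taken as closed chromatin.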

Other observations

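Of the 3 connexin regions, the one upstream of Gjb5 had the same summit base and the same −log10 p, 4.99, in the call of control peaks and in the call against EDKO. The same −log10 p, to within 1e-06, was found for 98 of all 3103 AP-2-dependent regions (3.16%) and the control peaks around them. In the other 2, upstream of Gja3 and in the intron of Gjb6, the value against EDKO was 74.0% and 77.2% of that in the control call, beside a median of 68.5% over all regions. The summits of the 2 calls lay 136 bp apart upstream of Gja3 and 71 bp apart in the intron of Gjb6. These percentages thus do not compare the same base. The 2 calls share the control libraries but differ in background, and the percentages were not tested.

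Gja1 and Gjb2 had nearly equal start-site peaks in width (2289 and 2295 bp) and summit −log10 p (7.59 and 7.83), with a CpG ratio of 0.544 and 0.760. They differed in that 2 AP-2-dependent regions lay within 100 kb of Gjb2 and 0 within 100 kb of Gja1. Neither region was closest to Gjb2: 1 was closest to Gja3 and 1 lay in an intron of Gjb6. Of all protein-coding genes, 20.2% had a region within 100 kb. With 1 value a peak this difference has no error, and with an area under the curve of 500 or more both genes had 0.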
